A study of Bos taurus with 38 samples.

Results

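The transcript abundance of 9 single oocytes from cattle was compared by their staining with brilliant cresyl blue (BCB), among complexes numbered 65 to 74. The oocytes of complexes 69 to 74 were BCB positive (6 oocytes) and those of complexes 65, 66 and 68 were BCB negative (3 oocytes). These are 9 of the 19 oocytes and of the 38 libraries of the study, which also sequenced the cumulus cells of each complex. The other 10 oocytes, 3 BCB positive and 7 BCB negative, carry lower or higher complex numbers and were used only to set their BCB difference beside this one. Within this run of numbers the BCB negative oocytes came first and the BCB positive oocytes after them, so number and BCB class cannot be told apart, and the labels do not say what the numbers stand for.

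All oocytes came from ovaries collected at an abattoir. No complex received any treatment other than the dye before it was taken apart, and each library holds the RNA of 1 oocyte. The labels do not tie a complex to a cow, so some oocytes may share an animal, and the p-values measure the spread between these oocytes only. The age of the animals is not given.

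Brilliant cresyl blue is a dye that the metabolism of a growing oocyte renders colourless, through the pentose phosphate pathway. Oocytes still growing lose the colour (BCB negative), while oocytes that have completed growth stay blue (BCB positive), and the stain is used to select oocytes for embryo production. A fully grown oocyte is nearly silent in transcription. It carries a store of maternal mRNA that is kept, translated or degraded in turn, and it stays coupled to the cumulus cells through gap junctions at the tips of their projections.

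The libraries held between 8886070 and 26908499 counts assigned to genes. Of 27607 gene identifiers, 13267 (48.1%) had more than 2 counts per 1000000 assigned counts (CPM) in at least 3 of the 9 oocytes and were tested, and 4686 of these have a symbol. No pair of libraries was close to a copy, with correlations across genes between 0.927 and 0.985. The zona pellucida transcripts ZP2 and ZP3, made by oocytes, were at no less than 1347 CPM in every library. Abundance is given per gene as CPM scaled by trimmed mean of M values (TMM), for BCB positive oocytes as the lowest, median and highest of 6, and for BCB negative oocytes as the 3 values in rising order. CPM is not corrected for transcript length, so levels were compared between oocytes and never between genes.

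The number of genes detected and the level of cumulus markers did not overlap between the classes, and neither passed after adjustment over the library measures. At the depth of the smallest library, 17890, 18246 and 18724 genes were expected with at least 1 count in BCB positive oocytes (lowest, median, highest), against 17590, 17633 and 17739 in BCB negative oocytes. The difference of 654 genes had the smallest p that the 84 ways to split 6 and 3 oocytes allow (two-sided exact permutation test, p = 0.0119, adjusted p = 0.107 over 9 library measures). Before the depths were made equal the difference was 1230 genes (exact permutation p = 0.0357, adjusted p = 0.161). The summed CPM of 16 cumulus and granulosa markers was 203, 563 and 4694 in BCB positive oocytes and 152, 169 and 185 in BCB negative oocytes. The oocyte of complex 72 stood far above the rest, while that of complex 73 was just above the BCB negative oocytes (exact permutation p = 0.345, adjusted p = 0.490 for the mean difference of 1090). Without complex 72 the mean difference was 402.8 CPM (exact permutation p = 0.125, adjusted p = 0.214). Total count, the number of genes above 2 CPM, the share of counts on the 10 most counted genes, on the 13 mitochondrially encoded protein genes and on cytoplasmic ribosomal protein genes, and the summed CPM of oocyte markers gave adjusted p between 0.214 and 0.679.

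**Figure D1:**
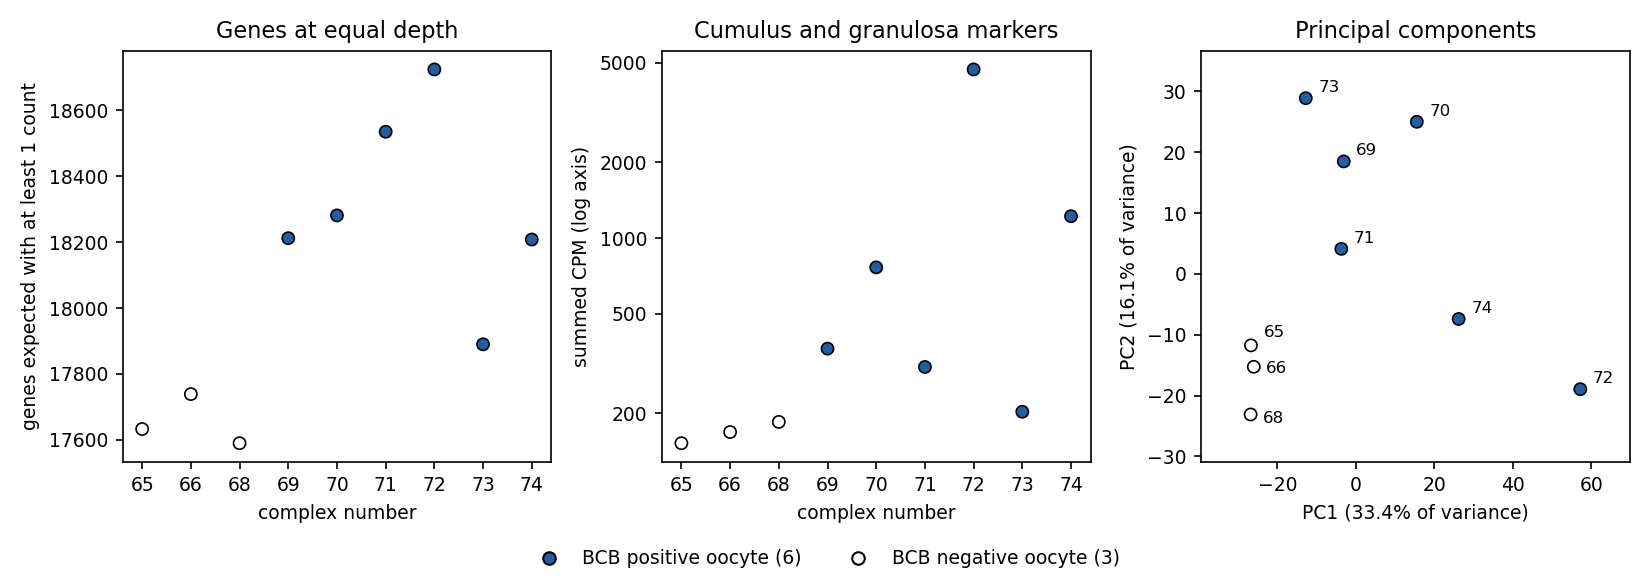
Genes expected with at least 1 count at the depth of the smallest library, summed CPM of 16 cumulus and granulosa markers on a log axis, and the first 2 principal components of log CPM, for 6 BCB positive (blue) and 3 BCB negative (white) oocytes by complex number. On the first component, 33.4% of the variance, the BCB negative oocytes sit between -26.8 and -26.0 and the BCB positive oocytes between -12.8 and 57.2, with complex 72 the highest.

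Principal components set the 3 BCB negative oocytes close together. Their scores on the first component, which held 33.4% of the variance, lay between -26.8 and -26.0. The BCB positive oocytes ranged from -12.8 to 57.2, with complexes 72, 74 and 70 farthest from the BCB negative oocytes, in the order of their summed cumulus markers. The second component held 16.1% and did not separate the classes.

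The markers of the cells that surround the oocyte were followed gene by gene, since the oocytes had been freed of cumulus cells with trypsin and a pipette and then washed. Of 19 cumulus and granulosa markers listed, 16 have a symbol in the tables used and 15 were tested. Of these 15, 9 were at or under 2 CPM in every BCB negative oocyte and so were tested only because BCB positive oocytes held them, and the markers are therefore described by their levels, with no count of p-values. None reached an FDR under 0.05. FST, which encodes the activin-binding protein follistatin, was at 8.72, 62.8 and 672 CPM in BCB positive oocytes and at 0, 0.104 and 0.46 CPM in BCB negative oocytes. VIM, the intermediate filament protein vimentin of somatic cells, was at 6.61, 83.9 and 615 CPM against 0.312, 0.438 and 0.46 CPM. GSTA1, a glutathione transferase of steroid-producing cells, was at 1.67, 29.4 and 251 CPM against 0, 0 and 0.11 CPM. Each of these 3 genes was near 0 in the BCB negative oocytes and spread over a wide range in the BCB positive ones. Whether such transcripts lay in the oocyte or in cumulus material left on it cannot be told apart in these libraries.

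INHA and INHBA encode inhibin subunits. INHA was at 4.41, 46.5 and 737 CPM against 0.11, 0.384 and 0.625 CPM, and INHBA at 8.37, 53.8 and 802 CPM against 0.921, 1.98 and 4.93 CPM. Also without overlap were CCND2 (cyclin D2), FSHR (the receptor of follicle-stimulating hormone) and the steroid enzymes CYP11A1 and HSD17B1. For 7 of the 16 markers the 3 BCB negative libraries together held 10 counts or fewer, so no fold change is given for the list. GJA1, the gap junction protein connexin 43, overlapped widely at 19.9, 30.5 and 94.7 CPM against 18.0, 28.6 and 39.4 CPM. SERPINE2, VCAN and NR5A1 also overlapped, and each was above 2 CPM in every oocyte. All 16 markers were highest in complex 72. Among all 13267 genes, 294 were likewise tested only through the BCB positive oocytes, and 166 of these were higher at an unadjusted p under 0.05. Of 13 theca, blood and endothelial markers only 4 have a symbol, and of these STAR alone had an unadjusted p under 0.05 and was lower in BCB positive oocytes, beside 9.73% of all tested genes with a symbol that were lower at that p. STAR was at 474, 529 and 603 CPM against 560, 682 and 703 CPM, with 4.19 CPM in cumulus cells. It was thus abundant in every oocyte library, and nothing is read from it about theca cells.

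**Figure D2:**
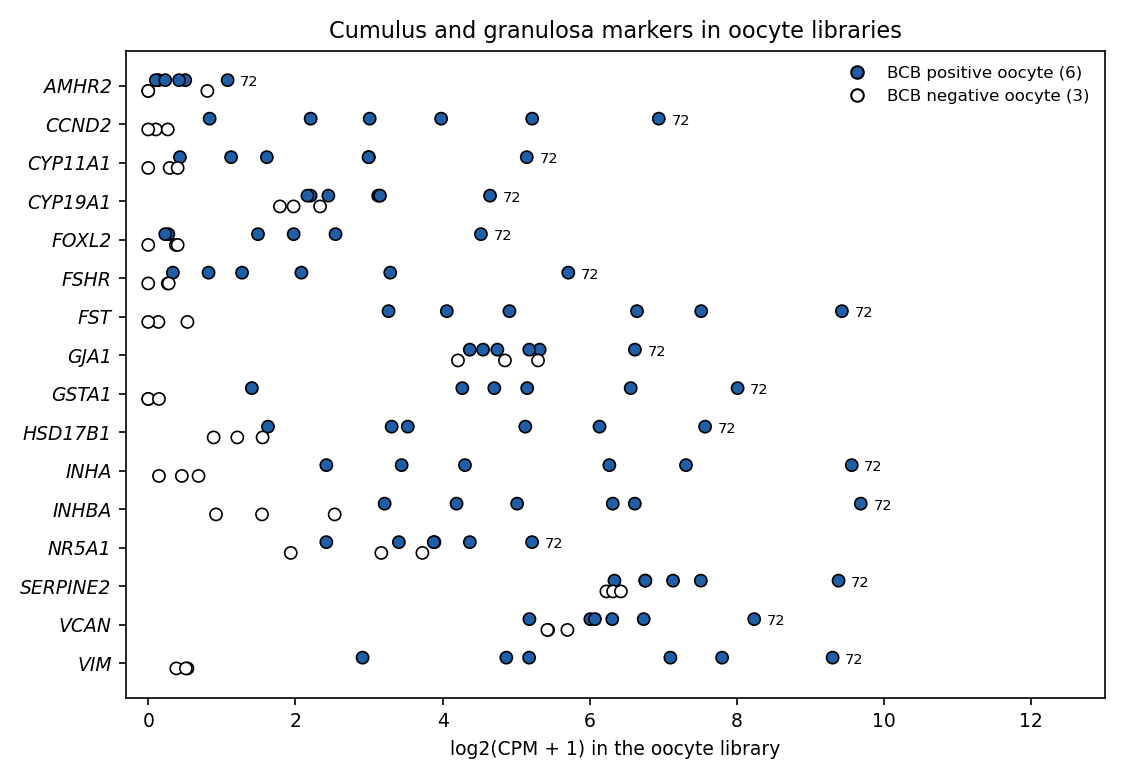
Level of 16 cumulus and granulosa markers as log2(CPM + 1) in each oocyte library, with CPM taken per library total, for 6 BCB positive (blue) and 3 BCB negative (white) oocytes. The oocyte of complex 72, marked, is the highest in all 16, and 9 markers have every blue point right of every white one, beside 5.4% of all tested genes. Of these 9, all but INHBA were at or under 2 CPM in every BCB negative oocyte. INHBA was above 2 CPM there only in complex 68 (4.79 CPM). All 9 thus needed the BCB positive oocytes to be tested, so nothing is read from their number.

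Across all 13267 genes, none passed the FDR threshold of 0.01 that the study used (0% called, edgeR quasi-likelihood test). At an unadjusted p under 0.05 there were 2759 genes (20.8%), 1379 higher (10.4%) and 1380 lower (10.4%) in BCB positive oocytes. DESeq2 called 505 genes at FDR under 0.01, and the rule of the study, which asks for a call both by DESeq2 and by an edgeR likelihood ratio test on library totals, gave 149. Scaling by library totals alone gave no gene at FDR under 0.01 and turned the even split at an unadjusted p under 0.05 into 1816 higher and 942 lower. Values below that concern genes with no call at 0.01 are therefore given as levels and differences.

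At an FDR under 0.05 there were 22 genes (0.166%), 6 higher (0.0452%) and 16 lower (0.121%) in BCB positive oocytes, with log2 differences of 0.60 to 1.33 and of -1.02 to -0.52. With scaling by library totals alone there were 18, of which 13 were higher and 5 lower, and 11 of the 18 were among the 22. The FDR of the 22 genes lay between 0.0434 and 0.0494, and few or none passed with 1 oocyte left out. With any 1 of the oocytes of complexes 65, 68, 69, 70, 73 and 74 left out, 0 genes were under that FDR. Without complex 66, 71 or 72 there were 1, 1 and 7 such genes, of which 0, 1 and 6 were among the 22. All 22 kept the direction of their difference each time. None of the 22 overlapped between the classes, so leaving out 1 oocyte could hardly have turned a direction. All 22 passed FDR 0.01 by DESeq2, on the same oocytes that chose these genes. Neither result is therefore a separate check of the 22. Of the 22, 6 have a symbol and are described first.

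Among the genes lower in BCB positive oocytes, MCM10 had the lowest p. Its product is needed to start DNA replication at licensed origins. It was at 268, 287 and 320 CPM in BCB positive oocytes and at 437, 444 and 472 CPM in BCB negative oocytes, with 33.7 CPM in the cumulus cells of these complexes. All 6 BCB positive oocytes were below all 3 BCB negative ones, by a log2 difference of -0.63 ± 0.08 (SE, quasi-likelihood FDR 0.0434). PDCD5, a small protein linked to apoptosis, was at 190, 215 and 233 CPM against 333, 334 and 335 CPM. The 3 BCB negative oocytes were nearly equal, and the log2 difference was -0.64 ± 0.09 (SE, quasi-likelihood FDR 0.0434).

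UBLCP1, a phosphatase that acts on the nuclear proteasome, was at 116, 126 and 135 CPM in BCB positive oocytes against 172, 189 and 203 CPM. The log2 difference was -0.59 ± 0.09 (SE, quasi-likelihood FDR 0.0469). TMEM126A, a mitochondrial inner membrane protein needed to assemble respiratory complex I, was at 36.7, 43.1 and 51.5 CPM against 67.9, 77.7 and 82.2 CPM, a log2 difference of -0.79 ± 0.13 (SE, quasi-likelihood FDR 0.0469). Neither gene overlapped between the classes. Of those without a symbol, ENSBTAG00000006950 was at 180, 197 and 230 CPM against 308, 311 and 365 CPM, and ENSBTAG00000034346 at 1373, 1540 and 1667 CPM against 2269, 2311 and 2365 CPM.

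The genes higher in BCB positive oocytes at FDR under 0.05 include SMPD4, a neutral sphingomyelinase of the nuclear envelope and endoplasmic reticulum. It was at 86.3, 89.9 and 95.4 CPM in BCB positive oocytes and at 56.7, 56.7 and 65 CPM in BCB negative oocytes. The 6 BCB positive oocytes lay within a narrow band above the others, with a log2 difference of 0.60 ± 0.10 (SE, quasi-likelihood FDR 0.0469). PTPN21, a tyrosine phosphatase of the cell cortex, was at 74.1, 105 and 111 CPM against 51.3, 57.1 and 58.3 CPM, a log2 difference of 0.84 ± 0.14 (SE, quasi-likelihood FDR 0.0494). Both had a lower mean in the cumulus cells of these complexes (41.3 and 11 CPM). ENSBTAG00000008934 was at 349, 398 and 476 CPM against 226, 231 and 241 CPM, and ENSBTAG00000010830 at 82.6, 93.0 and 110 CPM against 42.7, 49.2 and 60.1 CPM.

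Next in order of p were 8 genes with a symbol that were higher in BCB positive oocytes and did not pass an FDR of 0.05 (quasi-likelihood FDR 0.0501 to 0.0518). MXRA5, a secreted matrix protein, was at 48.2, 71.1 and 115 CPM against 26.8, 27.8 and 34.1 CPM, with 0.192 CPM in cumulus cells. TOP3A, a topoisomerase of recombination intermediates and of mitochondrial DNA, was at 57.8, 60.1 and 78.3 CPM against 21.9, 27.8 and 41.7 CPM. FNIP2, a partner of folliculin in nutrient sensing, was at 46.6, 63.9 and 69.6 CPM against 32.4, 33.6 and 36.3 CPM. TRIOBP, an actin-bundling protein, was at 45.7, 56.5 and 61.7 CPM against 26.4, 28.9 and 34.6 CPM. In each of these 4 genes the lowest BCB positive oocyte was above the highest BCB negative one. The remaining ones, TMEM94, SH3PXD2A, FNDC3B and REXO1, did not overlap either, where 5.4% of all tested genes had every BCB positive oocyte above every BCB negative one, with log2 differences between 0.46 and 1.93. Of these, SH3PXD2A, a scaffold of actin-rich protrusions, is the one with few counts, at 1.38, 1.53 and 2.50 CPM in BCB negative oocytes.

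In the other direction were 5 further genes that are given here (quasi-likelihood FDR 0.0501 to 0.0538). PSMA5, a subunit of the proteasome core, was at 218, 236 and 264 CPM in BCB positive oocytes against 329, 333 and 364 CPM. FABP5, a carrier of fatty acids in the cytosol, was at 257, 270 and 358 CPM against 427, 443 and 448 CPM, with 5.03 CPM in cumulus cells. CLPX, the unfolding subunit of a mitochondrial protease, was at 217, 224 and 277 CPM against 319, 319 and 365 CPM. SNRPD1, a core protein of the spliceosome, was at 134, 158 and 168 CPM against 203, 222 and 237 CPM. STEEP1 had a log2 difference of -0.51. None of the 5 overlapped between the classes, and 6.85% of all tested genes had every BCB positive oocyte below every BCB negative one.

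**Figure D3:**
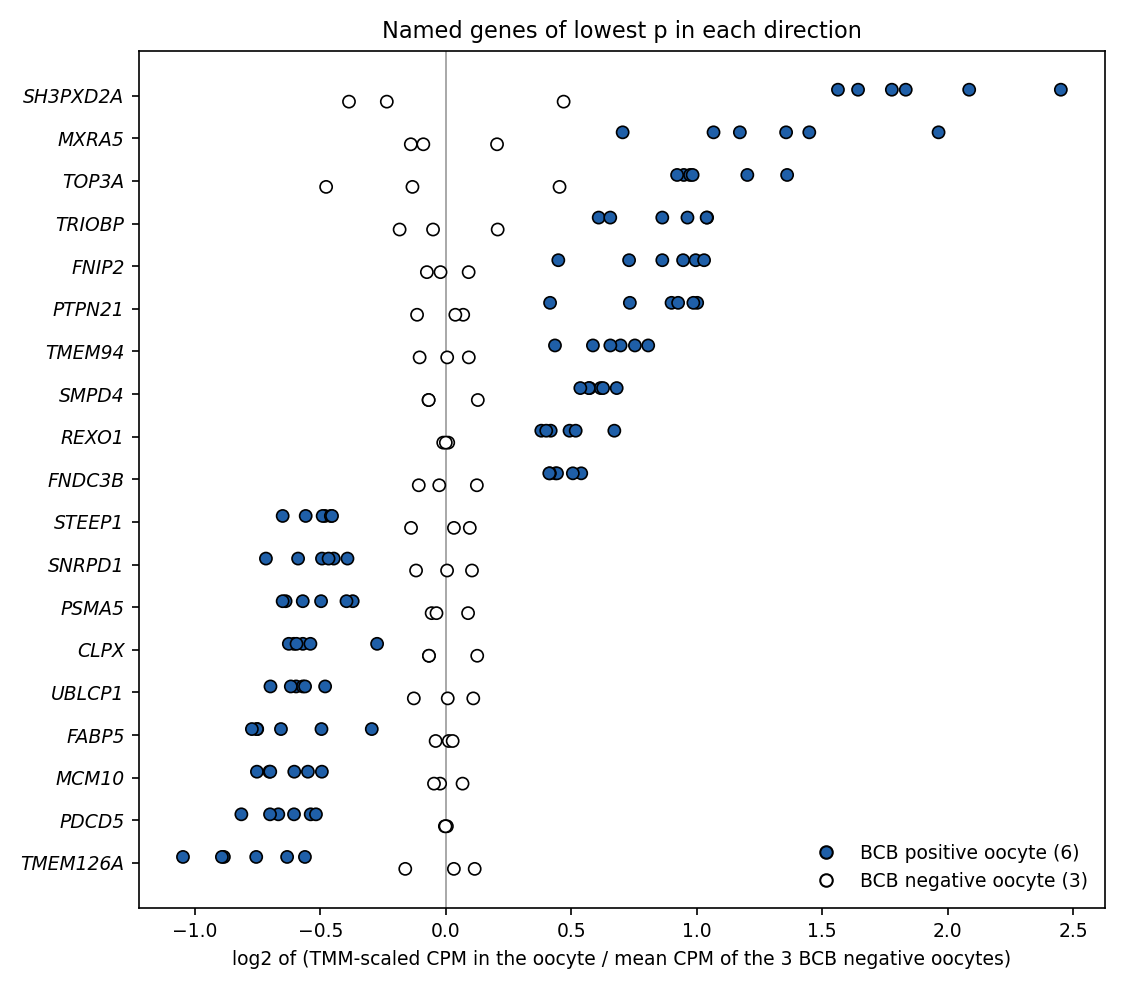
Level of the named genes of lowest p, 10 higher and 9 lower in BCB positive oocytes, in each oocyte, as log2 of its TMM-scaled CPM over the mean of the 3 BCB negative oocytes, for 6 BCB positive (blue) and 3 BCB negative (white) oocytes. The blue and white points do not overlap in any of the 19 genes, which were picked for a low p in these oocytes, so this is a description. Over all tested genes, 5.4% lay wholly above and 6.85% wholly below. SMPD4, PTPN21, MCM10, PDCD5, UBLCP1 and TMEM126A had an FDR under 0.05.

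The genes at an unadjusted p under 0.05 were also set beside the cumulus cells of the same complexes. The 1379 higher genes had a median log2 difference of 0.58 in size, and 311 were above 1. The 1380 lower genes had a median of 0.40 in size, and 30 were above 1. Of the higher genes 39.6% had more CPM in the cumulus cells of these complexes than in the oocytes, and of the lower genes 18.3%, beside 33.7% of all tested genes. More than 10 times the oocyte CPM was found in cumulus cells for 208 of the higher genes and 0 of the lower genes, out of 614 such genes tested. Of the 1379 higher genes, 166 had entered the test only through the BCB positive oocytes, where they are high. Without genes that were above 2 CPM in oocytes of 1 class alone, 1213 higher and 1379 lower genes were left. Genes above 2 CPM in only some BCB negative oocytes stayed in. The median log2 difference was then 0.53 and 0.40 in size, with 159 and 30 above 1. More CPM in cumulus cells was then found for 32.4% of the higher and 18.3% of the lower genes, beside 32.6% of all, and more than 10 times as much for 82 and 0 out of 449. With all genes left out that had more CPM in cumulus cells, 8798 genes remained, of which 0 passed FDR 0.01, 207 FDR 0.05 (109 higher, 98 lower) and 1984 an unadjusted p under 0.05 (1051 higher, 933 lower). That alternative was chosen after the data were seen.

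Of the pentose phosphate pathway, which supplies reducing power and ribose, the enzymes PGLS and PGD are given here. PGLS, which acts before PGD, overlapped at 52.7, 57.3 and 65.5 CPM against 49.9, 53.1 and 68.1 CPM. PGD, a dehydrogenase, also overlapped at 401, 456 and 535 CPM against 470, 473 and 503 CPM. Their log2 differences were 0.02 ± 0.13 and -0.08 ± 0.10 (SE), and that of PGLS changed sign under 5 of the alternatives.

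In glycolysis and pyruvate use, all 13 tested genes had a higher fitted level in BCB positive oocytes. Over all 4686 tested genes with a symbol, 2705 had. At an unadjusted p under 0.05 there were 2 of the 13 (15.4%), near the 14.5% of all tested genes with a symbol. That count was 4 of 13 without complex 72 and 1 with the summed cumulus markers as a covariate. This covariate did not overlap between the classes, so its part and that of BCB class cannot be fully told apart. HK1, the hexokinase that starts the pathway, was at 99.3, 114 and 139 CPM against 78.6, 91.2 and 95.0 CPM. SLC2A3, a glucose transporter, was at 5.96, 22.2 and 196 CPM against 4.27, 6.56 and 6.68 CPM, and ENO1, enolase, at 135, 193 and 1037 CPM against 126, 140 and 169 CPM. For SLC2A3 and ENO1 the highest value was that of complex 72, and cumulus cells held 1189 and 3633 CPM. The log2 differences of these 2 genes changed sign, to -0.10 and -0.44, with the summed cumulus markers as a covariate.

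Nuclear genes of the mitochondrial ribosome came next. Of 29 mitochondrial ribosomal proteins 24 had a lower fitted level, 10 (34.5%) at an unadjusted p under 0.05 and 0 in the other direction, with a median log2 difference of -0.23. Over all 4686 tested genes with a symbol, 1981 had a lower fitted level and 9.73% were lower at that p. The median of all genes was 0.02. MRPL48, of the large subunit, was at 19.5, 23.4 and 28.2 CPM against 29.0, 38.1 and 46.0 CPM, and MRPL51 at 66.5, 77.6 and 86.6 CPM against 95.7, 97.2 and 110 CPM. Neither overlapped between the classes, and 6 of the 29 genes had every BCB positive oocyte below every BCB negative one, beside 6.85% of all tested genes. The 10 genes were MRPS10, MRPS11, MRPS16, MRPS18C, MRPS21, MRPS33, MRPL39, MRPL44, MRPL48 and MRPL51, with log2 differences of -0.67 to -0.24, and none had an FDR under 0.05. Without complex 72 the count was again 10, and with the summed cumulus markers as a covariate it was 6.

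Nuclear subunits of oxidative phosphorylation gave 5 of 22 genes (22.7%) lower at an unadjusted p under 0.05 and 0 higher, again beside 9.73% and 14.5%, with a median log2 difference of -0.17. These were NDUFA6, NDUFB3, UQCRB, COX5A and COX7A1, from respiratory complexes I, III and IV. UQCRB was at 52.2, 58.7 and 64.4 CPM against 67.5, 72.3 and 76.0 CPM, without overlap. NDUFB3 overlapped at 22.5, 24.6 and 33.9 CPM against 30.2, 36.7 and 46.7 CPM. The 13 proteins encoded in the mitochondrial genome did not share this direction, with a median log2 difference of 0.65, 0 genes at an unadjusted p under 0.05 and wide overlap. ND2 of that list was at 63.5, 101 and 631 CPM against 86.6, 89.5 and 99.2 CPM, the highest value in complex 71.

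Proteasome subunits, which degrade proteins tagged with ubiquitin, were lower at an unadjusted p under 0.05 in 6 of 18 genes (33.3%) and higher in 0, beside 9.73% and 14.5% of tested genes with a symbol, with a median log2 difference of -0.19. The 6 were PSMA5 and PSMB7 of the core and PSMC2, PSMC4, PSMD9 and PSMD14 of the regulatory particle or its assembly. PSMD9 was at 70.1, 89.1 and 102 CPM against 112, 121 and 123 CPM. PSMD1, the most counted of the list, overlapped at 295, 322 and 339 CPM against 305, 319 and 322 CPM. Without complex 72 the count was 7, and with the marker covariate 4.

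Among 28 splicing factors 8 (28.6%) were lower and 4 (14.3%) higher at an unadjusted p under 0.05, beside 9.73% and 14.5% of tested genes with a symbol. The lower ones included SNRPD1, SNRPE and SNRPA1, proteins of the small nuclear ribonucleoproteins, and SF3B5, beside PRPF18, PRPF38A, SF3B1 and HNRNPH3. SNRPA1 was at 158, 178 and 186 CPM against 207, 232 and 233 CPM, without overlap. Cytoplasmic ribosomal proteins gave 3 (20%) lower of 15 and 0 higher. RPL26L1, a copy of RPL26 whose reads may not be separable from it, was at 65.2, 85.0 and 120 CPM against 137, 152 and 155 CPM. This count was 6 without complex 72 and 12 with the summed cumulus markers as a covariate. Histone genes were lower in 4 of 22 (18.2%) and higher in 0, with a median log2 difference of -0.38. H4C3 (ENSBTAG00000052332), a histone H4 gene whose copies may share reads, was at 8.72, 10.3 and 16.3 CPM against 18.0, 19.8 and 24.7 CPM. H1-4, a linker histone, overlapped at 105, 163 and 252 CPM against 185, 327 and 477 CPM.

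**Figure D4:**
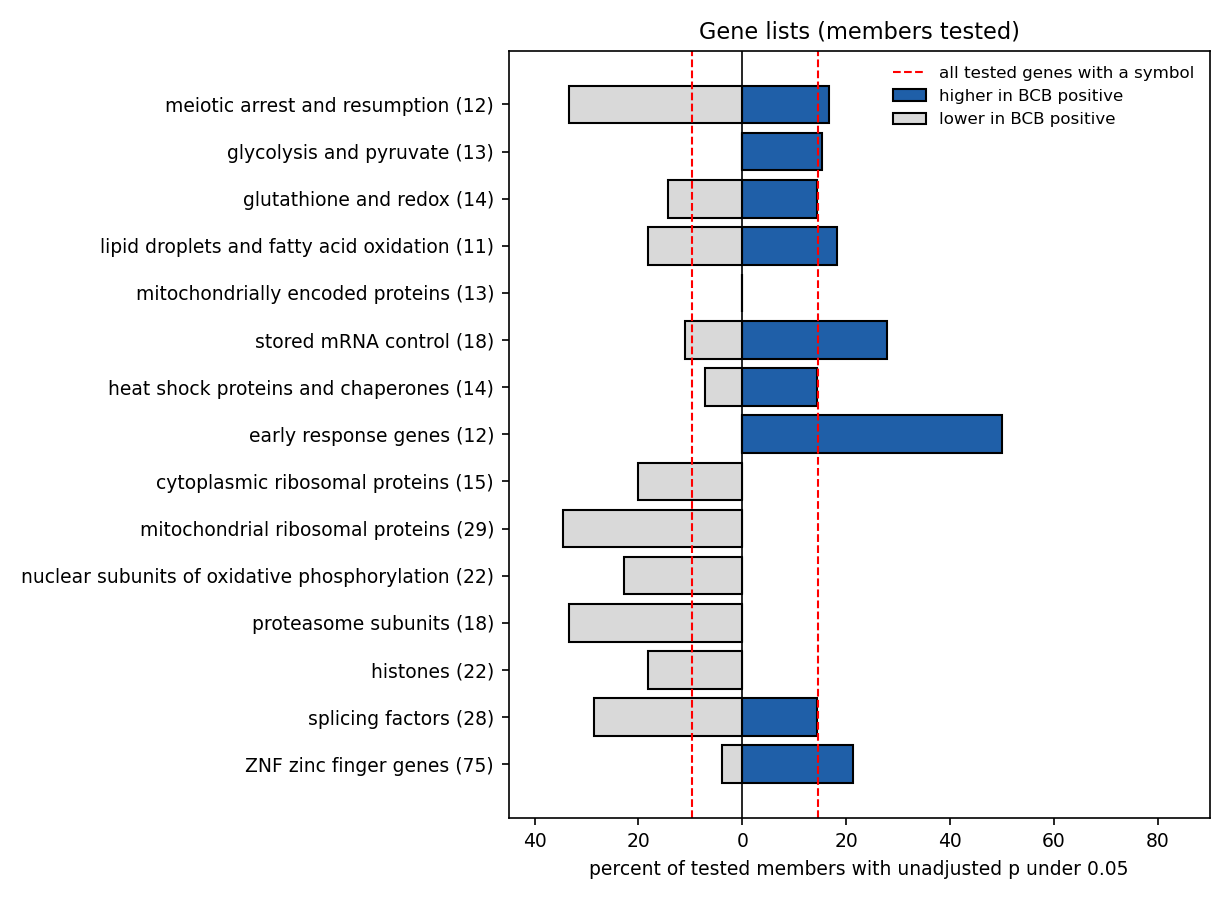
Percent of the tested members of 15 gene lists with an unadjusted p under 0.05, higher (blue, right) or lower (grey, left) in BCB positive oocytes, with the number tested in brackets. The dashed lines mark the 14.5% and 9.73% of all 4686 tested genes with a symbol, and the bar of mitochondrial ribosomal proteins reaches 34.5% on the left and 0 on the right.

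Zinc finger genes of the ZNF series, most of which bind DNA, were higher in 16 of 75 (21.3%) and lower in 3 (4%) at an unadjusted p under 0.05, beside 14.5% and 9.73% of tested genes with a symbol. Of the 16, ZNF521, ZNF605 and ZNF787 were tested only through the BCB positive oocytes. ZNF687 was at 33.2, 34.7 and 44.9 CPM in BCB positive oocytes against 20, 20.8 and 24.3 CPM, and ZNF710 at 59.8, 66.3 and 74.8 CPM against 46.1, 46.3 and 46.9 CPM. Neither overlapped, with a quasi-likelihood FDR of 0.0549 and 0.0569. ZNF226, the most counted of the list, was in the other direction and overlapped at 217, 246 and 321 CPM against 279, 375 and 395 CPM. Without complex 72 the counts were 18 higher and 6 lower of 74.

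Early response genes, which are transcribed within minutes of a stimulus, all had a higher fitted level in BCB positive oocytes, 12 of 12. Over all 4686 tested genes with a symbol, 2705 had. Of the 12, 6 (50%) had an unadjusted p under 0.05, beside 14.5% of tested genes with a symbol that were higher. BTG2, which is not among the 6, was tested only through the BCB positive oocytes, so its direction was set by the filter. The 6 were FOS, FOSB, JUN, ZFP36, CITED2 and IER3. JUN, a subunit of the AP-1 factor, was at 67.4, 104 and 337 CPM against 26.7, 37.7 and 43.9 CPM, the highest in complex 72. ZFP36, which targets mRNA with AU-rich elements for decay, was at 37.5, 40.0 and 67.8 CPM against 19.0, 19.3 and 34.3 CPM. Neither overlapped between the classes, with a quasi-likelihood FDR of 0.11 and 0.088. Cumulus cells held 1308 CPM of JUN and 226 CPM of ZFP36. Without complex 72 the count was again 6, and with the summed cumulus markers as a covariate it was 3. The part that RNA of cumulus cells has in these values was not tested beyond those alternatives.

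Control of stored mRNA was higher in 5 of 18 genes (27.8%) and lower in 2 (11.1%) at an unadjusted p under 0.05, beside 14.5% and 9.73% of tested genes with a symbol. CNOT3, a subunit of the deadenylase complex CCR4-NOT, was at 269, 347 and 392 CPM against 211, 231 and 294 CPM. PATL1, a decapping factor, was at 42.9, 64.0 and 72.3 CPM against 40.6, 43.9 and 45.6 CPM. CPEB1, a regulator of cytoplasmic polyadenylation of maternal mRNA, was at 542, 710 and 811 CPM against 589, 595 and 658 CPM. All 3 overlapped between the classes, and with the marker covariate 3 genes were higher and 1 lower.

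Of the machinery of meiotic arrest and resumption, 12 of 44 listed genes were tested, 4 (33.3%) lower and 2 (16.7%) higher at an unadjusted p under 0.05, beside 9.73% and 14.5% of tested genes with a symbol. These counts were 3 lower and 2 higher without complex 72, and 2 lower and 1 higher with the summed cumulus markers as a covariate. MAP2K1, the kinase upstream of mitogen-activated protein kinase, was at 255, 272 and 320 CPM against 321, 344 and 434 CPM, just without overlap. CCNB1, cyclin B1, overlapped at 796, 930 and 1006 CPM against 950, 1106 and 1181 CPM, as did PKMYT1, an inhibitory kinase of CDK1, at 46.7, 60.9 and 77.7 CPM against 39.2, 43.5 and 51.6 CPM. The spindle checkpoint genes BUB3 and MAD2L1 were lower with log2 differences of -0.24 and -0.39. Of the maternal effect genes only 3 were tested. DNMT1, the maintenance DNA methyltransferase, was at 368, 451 and 501 CPM against 283, 303 and 407 CPM, and ZAR1L, a paralog of zygote arrest 1, at 652, 764 and 909 CPM against 905, 943 and 1131 CPM.

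The 4 oocyte markers tested had lower fitted levels in BCB positive oocytes and none an unadjusted p under 0.05. Over all 4686 tested genes with a symbol, 1981 had a lower fitted level. ZP2 was at 1554, 1841 and 2279 CPM against 1962, 2285 and 2356 CPM, and ZP3 at 1347, 1702 and 2160 CPM against 1873, 1995 and 2256 CPM. DAZL, a germ cell RNA-binding protein, varied most, at 5.19, 25.4 and 226 CPM against 78.5, 101 and 366 CPM. KIT, the receptor of KIT ligand, was at 195, 260 and 311 CPM against 281, 304 and 306 CPM.

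Antioxidant, lipid and chaperone genes were split between directions. PRDX5, a peroxiredoxin, was at 140, 157 and 172 CPM in BCB positive oocytes against 206, 209 and 214 CPM, without overlap (log2 difference -0.44 ± 0.09 SE, quasi-likelihood FDR 0.0566). The list of glutathione and redox genes was higher in 2 and lower in 2 of 14 (14.3% each) at an unadjusted p under 0.05, near the 14.5% and 9.73% of tested genes with a symbol, and 1 of the higher ones is GSTA1, which was tested only through the BCB positive oocytes. FASN, fatty acid synthase, was at 33.7, 53.2 and 62.0 CPM against 30.9, 33.1 and 33.4 CPM, while FABP5 of the same list of 11 lipid genes was lower. Cumulus cells held 260 CPM of FASN. HSPA5, the chaperone of the endoplasmic reticulum, was at 143, 198 and 233 CPM against 88.8, 140 and 168 CPM with 2122 CPM in cumulus cells, and HSP90AA1 at 857, 967 and 1137 CPM against 1135, 1178 and 1239 CPM. Both overlapped, and the list of 14 chaperones had 2 higher (14.3%) and 1 lower (7.14%) at that p.

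The same BCB difference was then set beside that in the 10 other oocytes, which share no library with these 9. Of the 22 genes at FDR under 0.05, 4 had the same direction in the other oocytes, and these were PDCD5, UBLCP1, ENSBTAG00000013874 and ENSBTAG00000034496. MCM10 had a log2 difference of 0.20 ± 0.10 (SE) there, TMEM126A of 0.22 ± 0.15, SMPD4 of -0.44 ± 0.16 and PTPN21 of -0.59 ± 0.25, each opposite to that within complexes 65 to 74. Of the 1379 genes higher at an unadjusted p under 0.05, 310 (22.5%) were higher in the other oocytes, where 47.4% of all tested genes were. Of the 1380 lower genes, 392 (28.4%) were lower there, beside 52.6% of all. Genes are not independent replicates, so these shares carry no test.

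Some lists had medians of opposite sign in the 2 sets and others did not. The median log2 difference of mitochondrial ribosomal proteins was -0.23 within complexes 65 to 74 and 0.27 in the other oocytes, that of proteasome subunits -0.19 and 0.29, and that of nuclear subunits of oxidative phosphorylation -0.17 and 0.20. Zinc finger genes had medians of 0.07 and -0.27. The sign was shared for histones, with medians of -0.38 and -0.87, for cytoplasmic ribosomal proteins, with -0.07 and -0.24, and for chaperones, with 0.09 and 0.15. SERPINE2, a cumulus marker counted in every oocyte, had a log2 difference of 1.37 ± 0.71 (SE) within complexes 65 to 74 and of -0.50 ± 0.53 in the other oocytes. Without complex 72 the difference within complexes 65 to 74 was 0.58.

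A direct test of the difference between the BCB effects of the 2 sets called 265 genes at FDR under 0.01 (2%), 69 with a larger and 196 with a smaller value within complexes 65 to 74. With library totals alone the split turned round, at 106 larger and 69 smaller of 175 genes, and DESeq2 called 1079. Of the 22 genes, 11 were among the 265, although the same oocytes chose them, so that count is a description. All 6 oocytes of complexes 86 to 91 are BCB negative. With them left out, which leaves 1 BCB negative oocyte beside 3 BCB positive ones in that set, 0 genes passed FDR 0.01 (lowest quasi-likelihood FDR 0.146) and 1337 had an unadjusted p under 0.05. The 3 BCB positive oocytes of that set have lower numbers than these 6, so number and class can hardly be told apart there either.

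**Figure D5:**
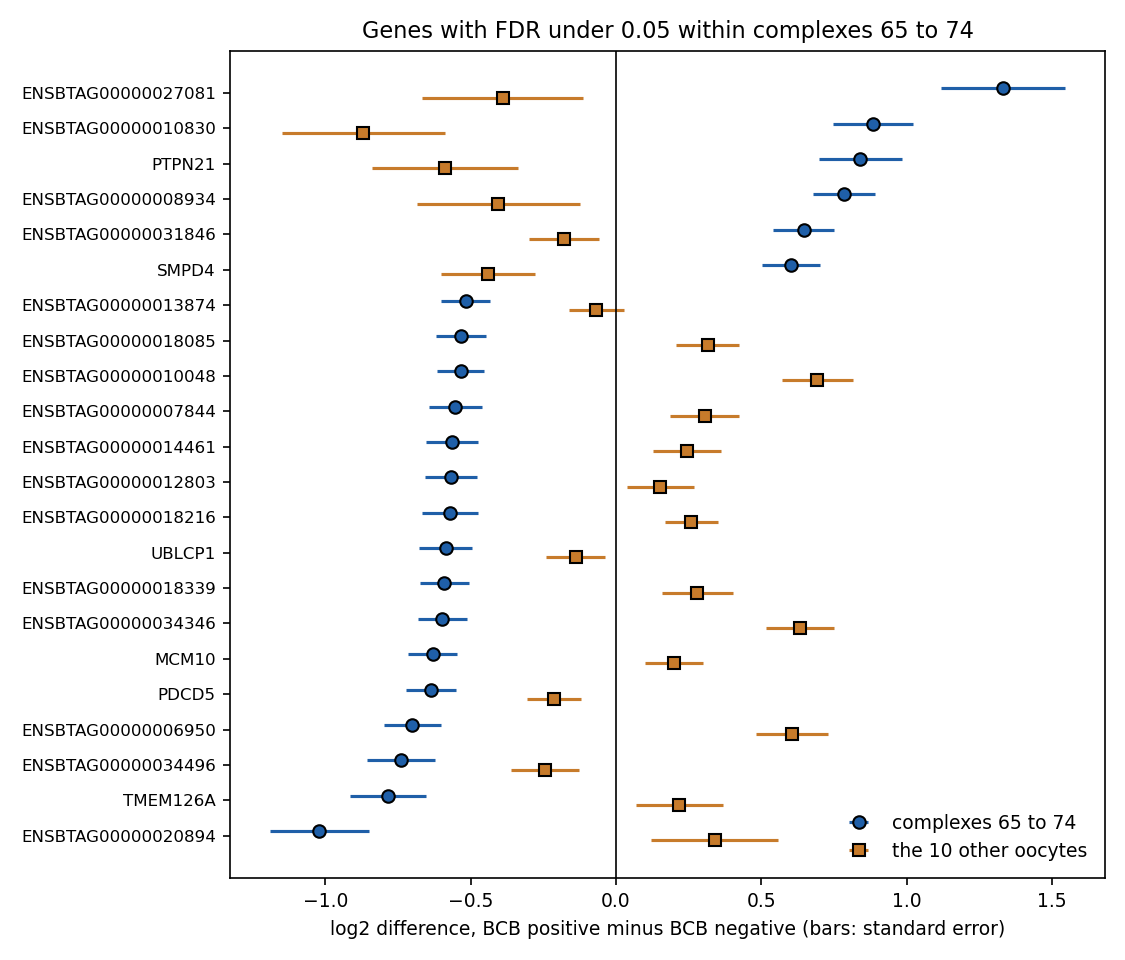
Log2 difference between BCB positive and BCB negative oocytes, with its standard error as a bar, within complexes 65 to 74 (blue circles) and in the 10 other oocytes (orange squares), for the 22 genes with an FDR under 0.05 within complexes 65 to 74. In 18 of the 22 the circle and the square lie on opposite sides of 0.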

How the data were processed

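The deposited values are raw counts per gene, which the authors made by aligning paired-end reads to ARS-UCD1.2 with HISAT2 2.1.0, removing duplicates and assigning reads to Ensembl genes with featureCounts 1.6.0. BCB classes and complex numbers were taken from the sample labels. Everything else was computed here. The 9 oocyte libraries of complexes 65 to 74 held 8886070 to 26908499 counts, which limits precision for genes of few counts. Genes with a CPM above 2 in at least 3 libraries were tested with edgeR 4.0.16 in R 4.3.3 (TMM, robust quasi-likelihood test, BCB class as the only term), with Benjamini-Hochberg adjustment over all tested genes, an FDR threshold of 0.01 as in the study and 0.05 as an alternative. The difference from the other 10 oocytes was fitted over 19 libraries. DESeq2 1.42.0 and limma 3.58.1 were alternatives. Library measures were compared by two-sided exact permutation tests. The count test was checked on simulated data.

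Symbols came from tables that pair 4934 of 27607 identifiers with one; list members without a symbol could not be found. Named with a symbol and a mean CPM of at least 5 were the 10 genes of lowest p in each direction, since none passed 0.01 (the rule named the largest changes among those that pass), all pentose phosphate members, the markers, and in each list the 2 of lowest p and the most counted, with 2 identifiers in each direction. Of these, 3 genes are not reported here. Other list members in the text were picked once their p was known. The genes, lists and rules were chosen with earlier results of these data known. Sequences and coordinates were not used here. The alternatives were other scalings, tools and filters, library total as a covariate, and each oocyte left out. A covariate of summed cumulus markers and the removal of genes with more CPM in cumulus cells were added after the data were seen.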

Additional observations from a re-analysis of the deposited data

Results flagged for a closer look

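Among the 6 BCB positive oocytes, 25 of 97 values tested had 1 oocyte far from the other 5 by Dixon's criterion at 95%. Chance gives this for about 1 in 20 independent values with a normal distribution. The 97 values share the same libraries and include the markers and their sum, so the 25 are not set against that share. Complex 72 was the highest in most of the 25. Among cumulus and granulosa markers it held 21.5 CPM of FOXL2, 737 of INHA, 651 of SERPINE2, 119 of CCND2, 802.5 of INHBA, 293.5 of VCAN, 50.1 of FSHR, 94.8 of GJA1, 23.5 of CYP19A1, 615 of VIM, 672 of FST, 33.6 of CYP11A1, 184 of HSD17B1 and 251 of GSTA1, and a summed marker level of 4694 CPM against 203 to 1221 in the other 5. The same oocyte was highest in SLC2A3 (196 CPM), ENO1 (1037 CPM), JUN (337 CPM) and JUND (548 CPM).

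Complex 71 was the highest in CLPX (277 CPM), in ND2 (631.5 CPM) and in the share of counts on the 10 most counted genes (3.59%). Complex 70 was the highest in DAZL (226 CPM) and ZNF687 (44.9 CPM) and the lowest in MRPL47 (98.7 CPM).

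The BCB difference within complexes 65 to 74 differed from that in the other 10 oocytes at FDR under 0.01 (quasi-likelihood test of the interaction) in 8 named genes. The log2 difference within minus that in the other oocytes was 2.65 for MXRA5, -0.84 for MCM10, -1.01 for TMEM126A, -0.83 for PSMA5, -1.31 for ENSBTAG00000006950, -1.24 for ENSBTAG00000034346, -0.94 for CCNB1 and 1.90 for ZFP36. Most of these genes were named for a low p in the same oocytes, so their number is a description.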

How the results depend on the processing

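No paired analysis was possible because BCB positive and BCB negative oocytes share no complex number. The count of 0 genes at FDR under 0.01 became 505 by DESeq2 and 149 by the rule of the study, was 0 to 1 with 1 oocyte left out (the 1 gene, ENSBTAG00000009035, without complex 66), and was 22 at FDR under 0.05. At FDR under 0.05 the count of 22 (6 higher, 16 lower) became 18 with library totals alone (13 higher, 5 lower), 43 with DESeq2 size factors (14 and 29), 1165 by DESeq2 (591 and 574), 542 by the rule of the study (394 and 148), 250 by limma-voom with quality weights (77 and 173), 5 with no filter, 132 with CPM above 2 in all libraries, 0 with library total as a covariate, 44 without mitochondrially encoded genes, 207 without genes of more CPM in cumulus cells, 2 with the marker covariate, and 0 to 7 with 1 oocyte left out. At an unadjusted p under 0.05 each alternative stayed within 1.5 times of 2759. The difference between the sets, 265 genes, became 175 with library totals alone (106 larger, 69 smaller), 1079 by DESeq2, 1599 at FDR under 0.05 and 0 without complexes 86 to 91.

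Of 1787 log2 differences of 88 named genes under alternatives, 17 in 10 genes changed sign. With the marker covariate these were SERPINE2 (-0.26), VCAN (-0.34), GJA1 (-0.74), CYP19A1 (-0.23), PGLS (-0.10), SLC2A3 (-0.10), ENO1 (-0.44), COX1 (0.10) and JUND (-0.016). Others were PGLS with library total as a covariate (-0.046), and with 1 oocyte left out PGLS (range -0.071 to 0.163, below 0 without complex 66, 68 or 72), GJA1 (-0.018 without complex 72, to 0.759), GCLC (-0.250 to 0.065, the latter without complex 68) and COX1 (-0.254 to 0.064, above 0 without complex 68 or 74). SERPINE2, VCAN, GJA1 and CYP19A1 are themselves part of the marker covariate, which did not overlap between the classes. Their sign with that covariate is therefore not read as a result. No gene became weaker, since none was called, and 39 named genes passed FDR 0.01 by DESeq2. Library measures kept their direction, although the difference of 1090 in summed marker CPM lay between 402.8 (without complex 72) and 1301 with 1 oocyte left out. With 3 BCB negative oocytes, 84 splits limit any exact p to 0.0119, and genes of few counts have wide errors.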
